A study of Mus musculus with 6 samples.

Results

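A set of 10 genes of renal phosphate handling and its hormones were followed in mouse kidneys labelled as having lost Pax2 and Pax8. They are the sodium-phosphate cotransporters Slc34a1, Slc34a2, Slc34a3, Slc20a1 and Slc20a2, the FGF23 co-receptor Kl, its receptor kinase Fgfr1, the parathyroid hormone receptor Pth1r, and the vitamin D hydroxylases Cyp27b1 and Cyp24a1. They were chosen by name, with earlier results of these data known. All 10 of 10 were measured, each by 1 transcript cluster with a single symbol, among 22180 genes on the array. Pax2 and Pax8 are transcription factors of the paired-box family, needed to form the kidney and still present in the adult nephron. RNA of bisected kidneys was hybridised to Affymetrix Mouse Gene 2.1 ST arrays, 1 per sample, and each value is a log2 expression value.

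The arrays labelled Pax28 dKO (called dKO here; arrays 1, 3 and 5) come from adult mice with floxed Pax2 and floxed Pax8 on both chromosomes and a Cre recombinase at Rosa26 that tamoxifen switches on. The Control arrays (2, 4 and 6) come from mice without Cre that also received tamoxifen; whether they carry the floxed alleles is not stated in the sources used here. All mice were given 50 mg/kg tamoxifen on 3 consecutive days, at 8 weeks of age with a repeat of the course at 10 weeks, and were killed 14 days after the last injection. Rosa26 is active in most cell types, so the recombinase is not limited to 1 nephron segment or to the kidney. Both groups have 2 females and 1 male; dKO 1 and Control 4 are male.

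Phosphate is filtered at the glomerulus and taken back in the proximal tubule by sodium-coupled carriers of the brush border, mainly the Slc34 proteins. Parathyroid hormone, through Pth1r, and FGF23, a bone hormone that signals through FGF receptors with klotho as co-receptor, both withdraw these carriers from the brush border. The same hormones set the level of active vitamin D, which Cyp27b1 makes and Cyp24a1 breaks down: parathyroid hormone favours Cyp27b1, whereas FGF23 lowers Cyp27b1 and raises Cyp24a1.

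Of the 10 genes, 4 were lower and 1 higher on the arrays labelled dKO at a limma adjusted p under 0.05, and 5 did not pass. Over all 22180 genes 7.2% passed, 3.08% lower and 4.12% higher. The 4 that fell were Slc34a3, Slc34a1, Pth1r and Kl, and the 1 that rose was Cyp24a1. Slc34a3 was the only one of the 10 that changed at least 2-fold. The median log2 difference was -0.25 over the 10 genes and -0.01 over all genes. A decrease in kidney RNA cannot tell fewer cells of a type from less RNA per cell.

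Neither targeted gene was lower on the arrays labelled dKO. Pax8 was at 10.11, 10.59 and 10.39 on dKO 1, 3 and 5, against 9.09, 9.0 and 8.89 on Control 2, 4 and 6, a rise of 1.36 ± 0.12 (SE; adjusted p = 0.0037). Pax2 differed by 0.27 ± 0.10 (SE; adjusted p = 0.19). The labels do not name the removed exons, so a cluster that covers the rest of the transcript checks nothing, and each direction given here is that of the arrays as labelled. Array medians lay between 3.81 and 3.87 log2, and the arrays correlated at Pearson's r between 0.979 and 0.995 across genes, which are not independent replicates. Controls 2 and 6, the female controls, stood apart in adipose signal. Ucp1, the uncoupling protein of brown fat, was at 5.12, 4.74 and 3.87 on dKO 1, 3 and 5, against 7.77, 3.53 and 7.53 on Control 2, 4 and 6.

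The promoter windows of the kidney phosphate carriers Slc34a1 and Slc34a3 and of Kl, 3 of the 4 genes that fell, are shown. The windows of Pth1r, the other gene that fell, are not printed. RefSeq's table on build GRCm38.p6 held 10 windows for 7 of the 10 genes; Slc20a2, Fgfr1 and Cyp24a1 were not among them. Each window runs from 250 bases before the annotated gene start to 50 after it, 5′ to 3′ on the gene's strand, at chr13:55399398-55399697 (plus strand) for Slc34a1, chr2:25234185-25234484 (minus strand) for Slc34a3 and chr5:150952357-150952656 (plus strand) for Kl. Capitals mark every match, on either strand, to 7 motifs.
Slc34a1: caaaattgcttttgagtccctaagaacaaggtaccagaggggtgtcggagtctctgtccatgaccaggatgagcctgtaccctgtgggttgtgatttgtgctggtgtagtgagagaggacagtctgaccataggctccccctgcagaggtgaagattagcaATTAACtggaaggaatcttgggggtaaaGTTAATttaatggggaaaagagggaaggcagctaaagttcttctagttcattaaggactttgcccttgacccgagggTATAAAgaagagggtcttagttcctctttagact
Slc34a3: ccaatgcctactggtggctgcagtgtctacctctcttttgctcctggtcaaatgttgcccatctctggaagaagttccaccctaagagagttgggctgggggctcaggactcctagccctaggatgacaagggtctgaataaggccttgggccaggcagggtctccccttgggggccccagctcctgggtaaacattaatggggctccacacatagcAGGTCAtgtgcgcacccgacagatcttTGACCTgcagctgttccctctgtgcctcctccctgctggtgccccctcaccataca
Kl: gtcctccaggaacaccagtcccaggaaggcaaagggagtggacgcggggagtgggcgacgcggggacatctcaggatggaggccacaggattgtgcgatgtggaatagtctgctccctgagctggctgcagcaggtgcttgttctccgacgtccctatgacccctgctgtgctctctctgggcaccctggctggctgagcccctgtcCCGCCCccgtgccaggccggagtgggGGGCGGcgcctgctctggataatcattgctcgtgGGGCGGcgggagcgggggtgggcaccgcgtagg

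The motifs searched were the HNF1 half-site GTTAAT, an HNF4 core CAAAGTCCA, the nuclear receptor half-site AGGTCA, the TATA box letters TATAAA, a Pax2/5/8 core GTCACGC, the E-box CACGTG and the GC box GGGCGG. The Slc34a1 window held the HNF1 half-site at positions -89 and -61 from the annotated start, on opposite strands, a motif found in 7.1% of all 32851 windows, and the letters TATAAA, found in 13.6%, at position 17 after the annotated start. The Slc34a3 window held the nuclear receptor half-site at -33 and -6, also on opposite strands, which 16.3% of windows hold. The Kl window held 3 GC boxes, a motif of 35.7% of windows, and 19 CpG dinucleotides, against 2 each in the Slc34a1 and Slc34a3 windows and a median of 7 over all windows. No capitals in the Slc34a1 window overlap another motif, nor in the other 2. The Pax2/5/8 letters, which 2.09% of windows hold, are in none of the 10 windows of these genes, which says only that these letters are not there.

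Slc34a3 encodes NaPi-IIc, a brush border phosphate carrier of the proximal tubule whose loss in humans causes hypophosphataemic rickets with hypercalciuria. It was at 4.90, 3.67 and 4.01 log2 on dKO 1, 3 and 5, against 7.79, 7.13 and 7.35 on Control 2, 4 and 6. The groups were far apart, with dKO 1, the male, the highest of the dKO arrays and Control 4, the other male, the lowest of the controls. The fall was 9.37-fold, a log2 difference of -3.23 ± 0.31 (SE; 95% interval -3.96 to -2.49; adjusted p = 0.0045), which leaves 10.7% of the control level. Only 1 of the 22180 genes had a more negative difference. Slc34a3 passed in all 6 fits that leave out 1 array (adjusted p up to 0.035), as 1.15% of all genes did, and was the only one of the 10 to do so. On dKO 3 it stood close to 3.26 log2, the level under which 90% of olfactory and vomeronasal receptor genes lie on these arrays.

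Slc34a1 encodes NaPi-IIa, the main phosphate carrier of the mouse proximal tubule. It was at 11.48, 11.30 and 11.29 on dKO 1, 3 and 5, against 11.83, 11.84 and 11.81 on Control 2, 4 and 6. The control arrays lay within a narrow band and every dKO array lay below it. The log2 difference was -0.47 ± 0.08 (SE; adjusted p = 0.022), or 72.3% of the control level. The call was lost without any one of Control 2, Control 6, dKO 3 or dKO 5 (adjusted p up to 0.088), with differences between -0.53 and -0.45 over the 6 such fits.

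Both kidney carriers fell, but their log2 values changed unequally. Slc34a1 lay far above Slc34a3 on every array, and whether signal level affects the size of a log2 difference was not tested. Taken within each array against the control mean, the Slc34a3 value less the Slc34a1 value was -2.17, -3.23 and -2.87 on dKO 1, 3 and 5, against 0.36, -0.30 and -0.06 on Control 2, 4 and 6. Every dKO array lay below every control in this measure, with a mean of -2.76 ± 0.54 (SD, n = 3). An exact permutation test, two-sided, gave p = 0.1, which is the lowest value possible with 3 arrays in each group.

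Slc34a2 encodes NaPi-IIb, best known as the phosphate carrier of intestine and lung. It was at 5.65, 5.55 and 5.53 on dKO 1, 3 and 5, against 5.40, 5.92 and 6.0 on Control 2, 4 and 6. Control 2 lay below all dKO arrays, so the groups overlapped, and the difference of -0.20 ± 0.15 (SE; 95% interval -0.56 to 0.17) did not pass (adjusted p = 0.54).

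Slc20a1 and Slc20a2 encode PiT-1 and PiT-2, sodium-phosphate carriers of a separate family that are expressed in most tissues. Slc20a2 was at 8.31, 7.94 and 8.12 on dKO 1, 3 and 5, against 8.32, 8.47 and 8.47 on Control 2, 4 and 6. Its groups did not overlap, but dKO 1 and Control 2 nearly met, and the difference of -0.30 ± 0.10 (SE) did not pass (adjusted p = 0.13). Slc20a1 was at 6.02, 6.10 and 6.15 on dKO 1, 3 and 5, against 6.15, 6.32 and 5.94 on Control 2, 4 and 6. The arrays of the groups were intermixed, with a difference of -0.04 ± 0.11 (SE; 95% interval -0.31 to 0.22; adjusted p = 0.87).

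**Figure D1:**
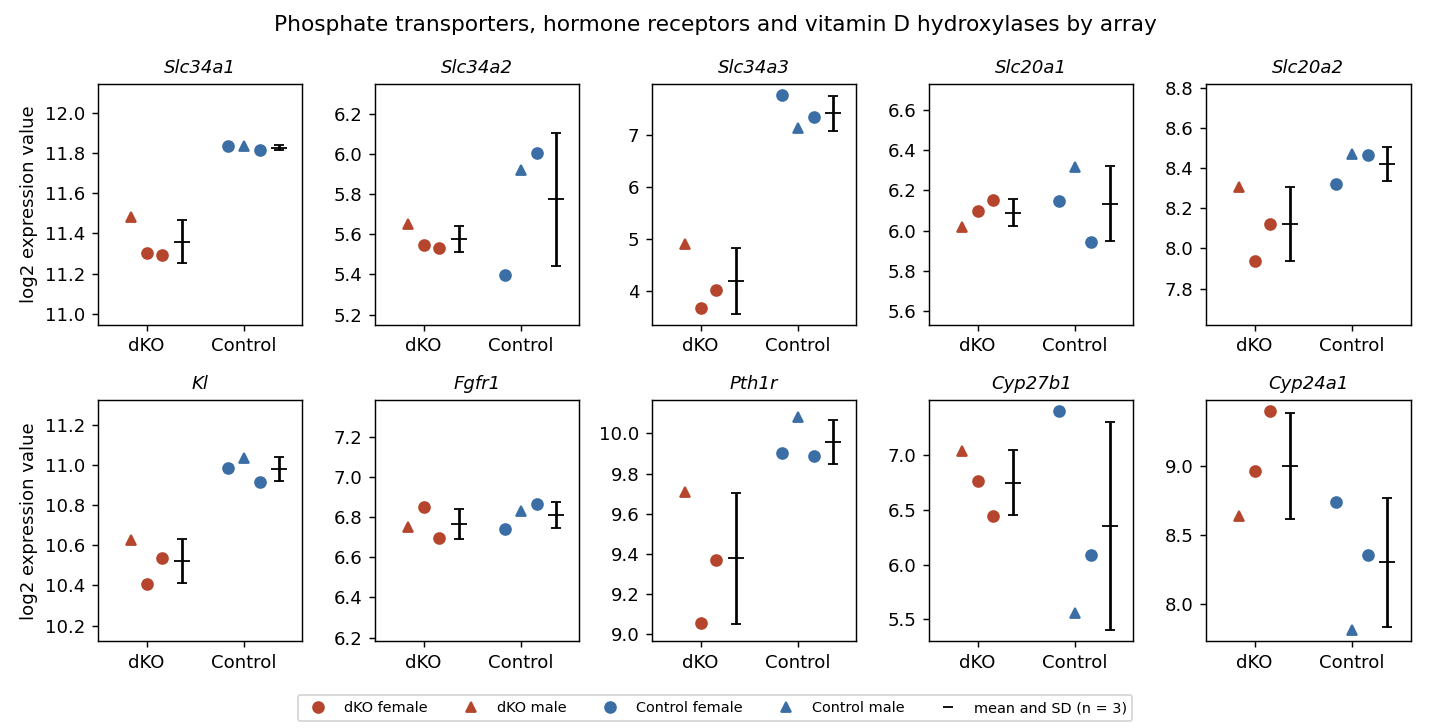
Log2 expression value (vertical axis, own scale in each panel) of the 10 genes on each array, with dKO arrays on the left and Control arrays on the right of each panel. Circles are females, triangles males, and the bar gives the mean and SD of 3 arrays; Slc34a3, Slc34a1, Kl, Pth1r and Slc20a2 have groups that do not overlap, all lower on dKO arrays.

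Kl encodes klotho, which turns FGF receptors into receptors for FGF23 and in the kidney is most abundant in the distal convoluted tubule. It was at 10.63, 10.41 and 10.53 on dKO 1, 3 and 5, against 10.98, 11.04 and 10.91 on Control 2, 4 and 6. Every dKO array lay below every control, by a log2 difference of -0.46 ± 0.08 (SE; adjusted p = 0.024), or 72.9% of the control level. The size varied little over the fits without 1 array (-0.49 to -0.41), but the call was lost in all 6 (adjusted p up to 0.096) and in the model without sex (0.055).

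Fgfr1, the receptor kinase that klotho pairs with for FGF23, was at 6.75, 6.85 and 6.70 on dKO 1, 3 and 5, against 6.74, 6.83 and 6.86 on Control 2, 4 and 6. The groups overlapped, with the lowest array a dKO array and the highest a Control array. The difference was -0.04 ± 0.09 (SE), with a 95% interval from -0.25 to 0.16 (adjusted p = 0.82).

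Pth1r, the receptor of parathyroid hormone and its related peptide, was at 9.71, 9.06 and 9.37 on dKO 1, 3 and 5, against 9.90, 10.08 and 9.89 on Control 2, 4 and 6. The dKO arrays all lay below the controls, with dKO 1 closest to them, and spread more widely (SD 0.33 on dKO arrays, 0.11 on Control arrays). The difference was -0.58 ± 0.12 (SE; adjusted p = 0.034), or 67.0% of the control level. The call was lost without any one of Control 2, Control 6, dKO 3 or dKO 5 (adjusted p up to 0.12) and in the model without sex (0.13).

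Of the 10 genes, 5 had groups that did not overlap, against 22.5% of all genes. In all 5 the dKO arrays lay below the controls, as in 10.8% of all genes. These 5 were the 4 that fell and Slc20a2.

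Cyp24a1, the 24-hydroxylase that inactivates vitamin D hormone, was at 8.64, 8.97 and 9.40 on dKO 1, 3 and 5, against 8.74, 7.81 and 8.36 on Control 2, 4 and 6. The groups overlapped, because the male dKO 1 lay below the female Control 2. Within each sex the dKO arrays were higher, by 0.63 log2 between the female means and by 0.83 between the 2 males. With sex in the model the difference was 0.70 ± 0.15 (SE; adjusted p = 0.044), a 1.62-fold rise. The call was lost without sex in the model (adjusted p = 0.25), with array weights (0.054) and in 5 of the 6 fits without 1 array (up to 0.15), the exception being the fit without dKO 3.

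Cyp27b1, the 1-alpha-hydroxylase that makes the active hormone, was the most variable of the 10 among controls. It was at 7.04, 6.76 and 6.45 on dKO 1, 3 and 5, against 7.40, 5.56 and 6.09 on Control 2, 4 and 6. Control 2 was the highest of all arrays and Control 4 the lowest, so the dKO values lay inside the control range. The difference of 0.40 ± 0.43 (SE; 95% interval -0.62 to 1.42) did not pass (adjusted p = 0.66). The male pair differed by 1.48 and the female means by -0.14, and the difference took the sign of the females when either male array was left out. The interval runs from 65.1% to 267% of the control level, so neither a fall nor a rise within it is excluded.

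**Figure D2:**
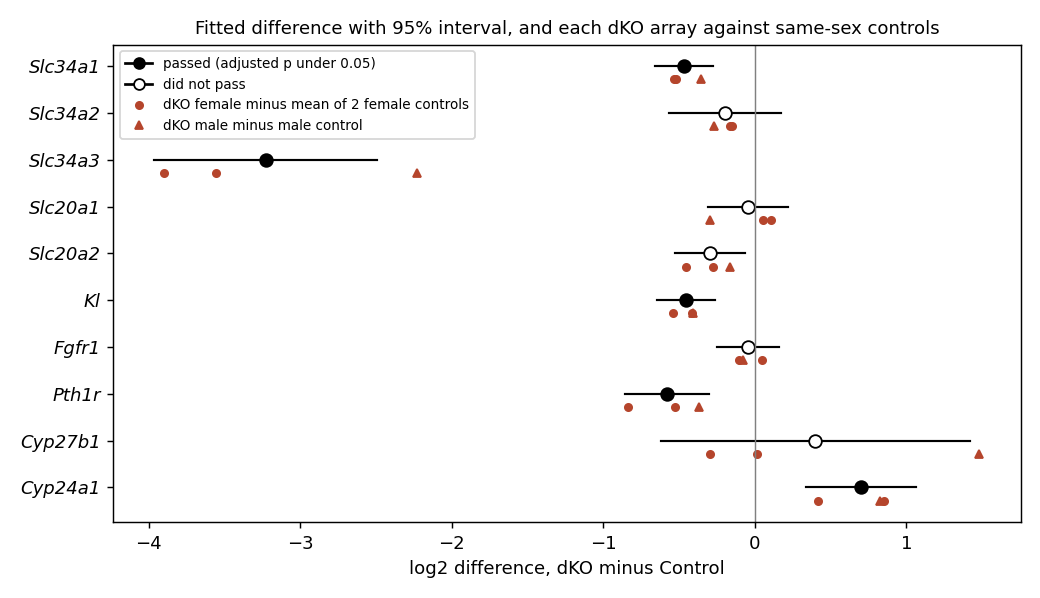
Log2 difference, dKO minus Control (horizontal axis), for each of the 10 genes: large circles with lines are the fitted differences with 95% intervals, filled where the gene passed. Small red symbols are each dKO array less the controls of its own sex; Slc34a3 lies between -3.90 and -2.23 by this measure, and Cyp27b1 has its male far to the right of its females.

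None of the 10 genes passed for a difference between males and females, where 1.87% of all genes did. At an unadjusted p under 0.05, 2 of the 10 did, against 16.1% of all genes. Those were Cyp24a1, at -0.64 ± 0.16 (SE) in males less females (adjusted p = 0.11), and Pth1r, at 0.34 ± 0.12 (adjusted p = 0.24). None passed for a genotype difference that depends on sex in limma's interaction term, where 0.00451% of all genes did. At an unadjusted p under 0.05, 1 of the 10 did, against 6.99% of all genes. That was Slc34a3, lower by 3.73 in female means and by 2.23 between the males, an interaction of 1.5 ± 0.32 (SE; adjusted p = 0.54). With 1 male in each group, this difference rests on a single pair. Across the genes that fell, dKO 1 was the nearest of the dKO arrays to the controls in Slc34a3, Slc34a1, Kl and Pth1r alike.

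The other genes of these pathways were counted from lists that leave out the 10. Among 84 measured genes in 5 lists, 16 passed (19.0%), 5 lower and 11 higher, with a median log2 difference of 0.03. Over all genes 7.2% passed, 3.08% lower and 4.12% higher. These lists were written with earlier results of these data known.

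Of 15 phosphate transport genes and partners, 2 fell and 1 rose (median 0.00). Tmem174, a proximal tubule membrane protein that binds NaPi-IIa, was at 8.68, 7.14 and 7.44 on dKO 1, 3 and 5, against 8.98, 9.13 and 9.01 on Control 2, 4 and 6. All dKO arrays lay below the controls, with dKO 1 again the nearest, and the fall was 2.44-fold (-1.29 ± 0.25, SE; adjusted p = 0.031). Slc17a4, of the type I phosphate transporter family, fell by 0.98 ± 0.14 (SE; adjusted p = 0.014). Stc1, which encodes stanniocalcin, a secreted glycoprotein named for calcium and phosphate regulation in fish, rose by 1.80 ± 0.32 (SE; adjusted p = 0.025). Its male pair differed by 2.92 and its female means by 1.24. Each of these 3 calls was lost in at least 3 of the 6 fits without 1 array. Xpr1, the phosphate exporter, differed by -0.20 ± 0.07 (SE; adjusted p = 0.18), and Slc9a3r1, the scaffold NHERF1 that holds NaPi-IIa at the membrane, by 0.16 ± 0.12 (adjusted p = 0.53).

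Of 24 FGF23 and klotho signalling genes, 4 rose and none fell (median 0.04). Fgfr2, a receptor kinase for other FGF ligands, was at 8.18, 8.22 and 8.32 on dKO 1, 3 and 5, against 7.14, 6.98 and 7.11 on Control 2, 4 and 6. The groups were well apart, and the rise of 2.24-fold (1.16 ± 0.08, SE; adjusted p = 0.0017) passed in all 6 fits without 1 array. Spry2, Dusp6 and Spred1, feedback inhibitors of the pathway from receptor kinases to ERK, rose by 0.55, 0.40 and 0.37 (adjusted p between 0.040 and 0.046). Dusp6 and Spred1 lost their calls in all 6 fits without 1 array, and Spry2 in 4. Fgfr3 and Fgfr4 differed by -0.26 ± 0.12 and -0.30 ± 0.10 (SE) and did not pass. Fgf23 itself, a bone product, lay below the dim limit of 3.26 on every array. Egr1, an immediate early gene that ERK induces and that was picked out after its values were seen, was at 5.79, 7.86 and 6.37 on dKO arrays 1, 3 and 5, against 5.35, 5.01 and 4.74 on Control arrays 2, 4 and 6, and did not pass (1.64 ± 0.43, SE; adjusted p = 0.075).

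Of 21 PTH signalling genes, 1 fell and 2 rose (median 0.10). Prkar2b, a regulatory subunit of protein kinase A, fell by 1.13 ± 0.24 (SE; adjusted p = 0.038). It was at 5.38, 5.55 and 5.34 on dKO 1, 3 and 5, against 6.74, 5.79 and 7.15 on Control 2, 4 and 6. Controls 2 and 6, which had the high adipose signal, were well above Control 4 in this gene. The part of adipose tissue in this fall was not tested. Rgs2, which restrains G protein signalling, rose by 1.05 ± 0.21 (adjusted p = 0.034), and Arrb2, the arrestin that binds activated receptors, rose by 0.59 ± 0.10 (adjusted p = 0.023). Each of these 3 calls was lost in at least 3 of the 6 fits without 1 array. Gnas, which encodes the stimulatory G protein that Pth1r uses, differed by 0.10 ± 0.07 (SE; adjusted p = 0.49). Its cluster averaged only 4.56 log2 over the arrays, and whether that cluster reports the main transcript was not checked. Pth lay below the dim limit.

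Of 16 genes of vitamin D uptake, activation and reception, 1 fell and 2 rose (median -0.07). The fall was in Fdx1, the ferredoxin that passes electrons to mitochondrial P450 enzymes such as Cyp27b1 and Cyp24a1, by 0.39 ± 0.08 (SE; adjusted p = 0.036). Cyp3a11 rose by 1.11 ± 0.23 (adjusted p = 0.037); Cyp3a13 passed as higher with a mean below the dim limit. Fdx1 and Cyp3a13 lost their calls in all 6 fits without 1 array and Cyp3a11 in 4. The vitamin D receptor Vdr was at 9.85, 9.75 and 9.78 on dKO 1, 3 and 5, against 9.83, 9.89 and 9.93 on Control 2, 4 and 6, and differed by -0.09 ± 0.08 (SE; adjusted p = 0.59). Its partner Rxra differed by 0.15 ± 0.08 (adjusted p = 0.34). The endocytic receptors that bring in vitamin D bound to its carrier protein, Lrp2 and Cubn, differed by -0.34 ± 0.14 and -0.34 ± 0.11 (SE), with no overlap between groups, and did not pass. The 25-hydroxylases Cyp2r1 and Cyp27a1 differed by -0.49 ± 0.19 and 0.26 ± 0.13 (SE) and did not pass.

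Of 8 calcium transport genes under the same hormones, 1 fell and 2 rose (median 0.08). S100g, the vitamin D-regulated calcium-binding protein calbindin-D9k, fell 3.0-fold (-1.58 ± 0.13, SE; adjusted p = 0.0028) and passed in all 6 fits without 1 array. The calcium channel Trpv6 rose by 0.65 ± 0.13 (adjusted p = 0.035) and the calcium-sensing receptor Casr by 0.35 ± 0.08 (adjusted p = 0.049). Trpv6 lost its call in 4 of the fits without 1 array and Casr in all 6.

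**Figure D3:**
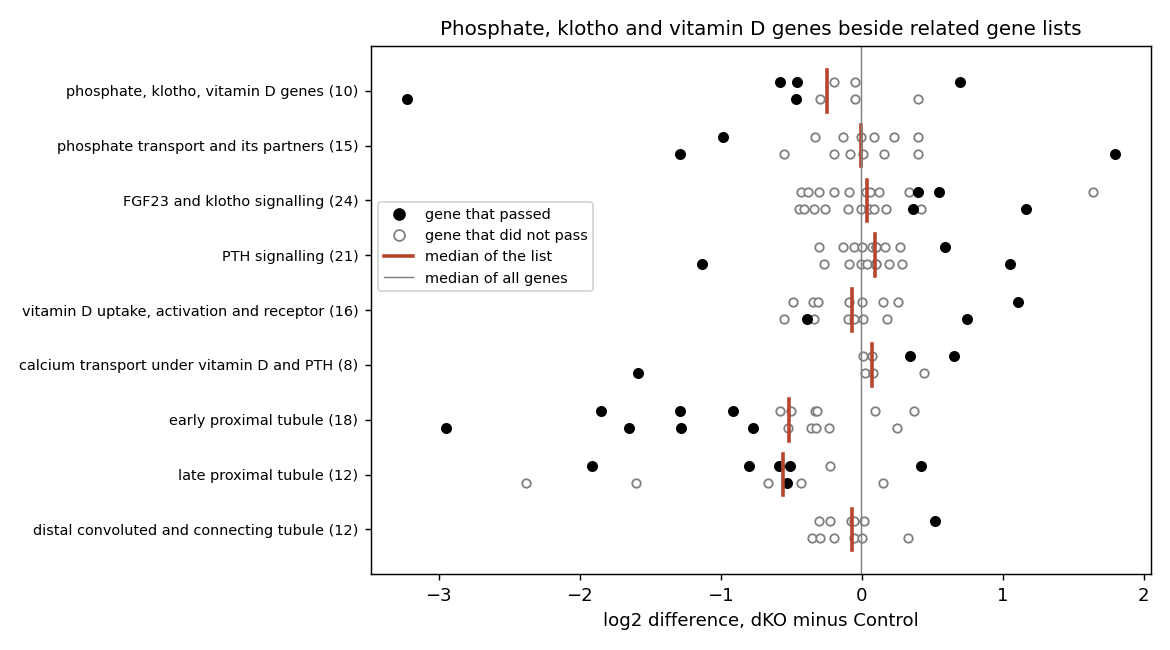
Log2 difference, dKO minus Control (horizontal axis), of each gene in the 10-gene set and in 8 related lists, with the number of measured genes in parentheses. Filled circles passed, open circles did not, red bars are list medians and the grey line is the median of all genes; the early and late proximal tubule lists have medians of -0.51 and -0.56, and the pathway lists lie near 0.

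Markers of the segments and cell types that express these genes moved as follows, beside 3.08% lower and 4.12% higher over all genes. Of 18 early proximal tubule genes 7 fell and none rose (median -0.51), and the mean log2 level of the list lay between 9.64 and 10.07 on dKO arrays, against 10.43 to 10.63 on Control arrays. The largest of these falls was in Slc5a2, the glucose carrier SGLT2, at 7.71-fold, followed by Slc6a19, a neutral amino acid carrier, by 1.85 ± 0.24 (SE). Miox, an inositol oxidase of the proximal tubule, fell by 0.92 ± 0.10 (SE). The dKO array with the highest early proximal level was dKO 1, which was also the highest for Slc34a3, Slc34a1, Kl and Pth1r. It is the only male dKO array, so sex and early proximal level cannot be told apart here. Against controls of the same sex, Kl differed by -0.41, -0.54 and -0.41 on dKO 1, 3 and 5. By the same measure and in the same order, Slc34a3 differed by -2.23, -3.90 and -3.55 and Slc34a1 by -0.35, -0.52 and -0.53. Pth1r differed by -0.37, -0.84 and -0.53. Of 12 genes of the distal convoluted tubule, where Kl is most abundant, and the connecting tubule, none fell and 1 rose (median -0.07). The mean of this distal list was 8.94 to 9.16 on dKO arrays, against 8.92 to 9.25 on Control arrays.

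Macrophage and myeloid genes, listed because macrophages also make Cyp27b1, had 9 of 13 members higher and none lower (median 1.27), with a list mean of 6.21 to 7.08 on dKO arrays, against 5.30 to 5.43 on Control arrays. Fibroblast and matrix genes, listed because stromal cells express Fgfr1, had 7 of 12 members higher and none lower (median 0.64), with a list mean of 6.99 to 7.37 on dKO arrays, against 6.13 to 6.62 on Control arrays. Of 11 tubular injury genes 9 rose (median 1.45), and of 10 immediate early genes 5 rose (median 1.0). No gene of these 4 lists, or of the proximal and distal lists, had a mean below the dim limit. The part of any of these shifts in the 10 genes was not tested.

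None of 10 endothelial genes, 6 adipose genes and 7 adrenal genes passed, and 6 of the 7 adrenal genes had means below the dim limit. The adipose list mean was 6.38 and 6.20 on Controls 2 and 6, 4.43 on Control 4 and 4.62 to 5.44 on dKO arrays. Without Controls 2 and 6 the comparison rests on 1 male pair with no replicates, dKO 1 less Control 4, in which the log2 difference was -2.23 for Slc34a3, -0.35 for Slc34a1, -0.41 for Kl and -0.37 for Pth1r. With 1 control array left, whether a gene passes in that fit says little, and the part of adipose tissue in the falls was not tested.

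**Figure D4:**
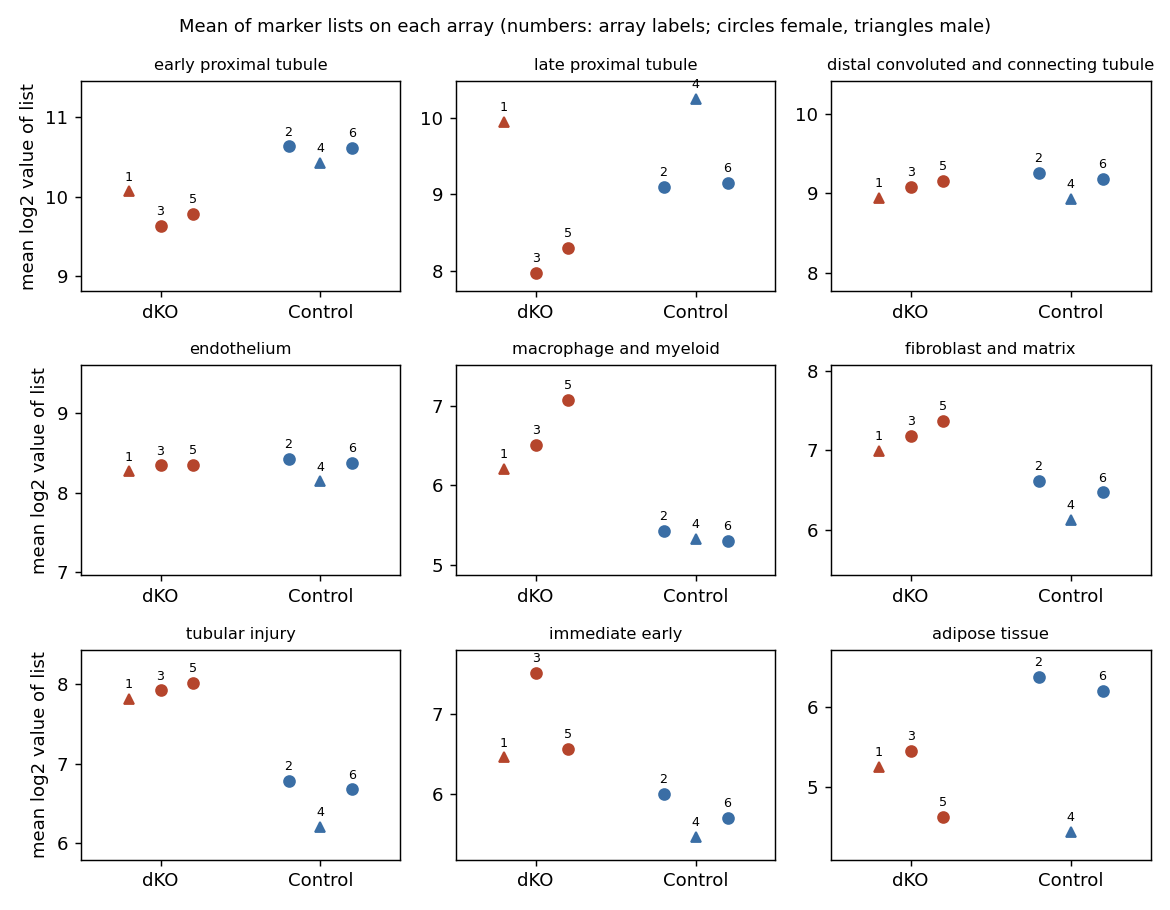
Mean log2 value of 9 marker lists (vertical axes, own scale) on each array, dKO arrays on the left and Control arrays on the right of each panel, with array numbers beside the points; circles are females and triangles males. The early proximal list is lower on all dKO arrays, the macrophage, fibroblast, injury and immediate early lists are higher, and the adipose list is high on Controls 2 and 6.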

How the data were processed

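Kidney RNA of 6 mouse samples, 3 per group, was hybridised to Affymetrix Mouse Gene 2.1 ST arrays, from 400 ng of RNA each per the labels. The authors deposited log2 expression values per transcript cluster. The submitters' processing notes list RMA, limma and R 3.4.0 with no role for each, and neither a build nor a filter is given in the sources used here. The 10 genes, the lists and the tests were chosen with earlier results of these data known.

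The table holds 41345 clusters, of which 23521 have 1 symbol in the platform annotation; 1814 with several and 16010 with none were left out. The cluster with the highest mean stood for a gene, which gave 22180 genes. RefSeq matched 23328 clusters by gene identifier and changed 0 symbols. Genotype and sex were fitted with limma 3.58.1 in R 4.3.3 (default empirical Bayes; 3 residual and 6.72 total degrees of freedom), with Benjamini-Hochberg adjustment over all genes and a threshold of 0.05. Sex and genotype by sex terms were tested likewise, and an exact two-sided permutation test was used for differences within arrays between genes. Differences are dKO minus Control on the log2 scale. The dim limit of 3.26 log2 is the 90th percentile of the means of 1390 olfactory and vomeronasal receptor genes. In 20 simulations of the dKO and Control comparison over 22180 genes, 200 genes were changed in each and the noise was independent between genes. The fit called 14.4% of the genes changed by 0.5 log2, 87.7% of those changed by 1 and 99.0% of those changed by 2. Of its calls 4.16% were false. In the data 1596 genes passed, so the simulated shares need not hold there.

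The labels do not say that each array is a separate animal, so a p-value here reflects only how much these samples vary, which may be technical, and the 6 arrays limit the precision. Genes named are the 10, Pax2, Pax8, Ucp1 and genes of the pathway lists that passed (up to 6 a list). Regulators, chosen with earlier results of these data known, are named whether they passed or not. Up to 3 genes per marker list and the genes most like Slc34a3 and Slc34a1 over the arrays are also named. Alternatives left out sex, the males, each array, both female controls or dim genes, or changed the prior, the weights, the scaling or the choice of clusters; the values against same-sex controls were added after seeing the data.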

Additional observations from a re-analysis of the deposited data

How the results depend on the processing

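Of the 10 genes 4 passed as lower with all arrays, and 1 to 3 did in the fits without 1 array; 1 passed as higher, and 0 to 1 did in those fits. All genes passing numbered 1596, and 344 to 1249 in those fits (344 without Control 2, 356 without Control 6, 529 without dKO 5, 613 without dKO 3), and of the pathway list genes 16 passed, and 2 to 12 did. Leaving out either male array gives the females-only fit for genotype, since the other male then fixes the sex term; females alone gave 3 lower and 0 higher of the 10 (1249 of all genes). Without a sex term 2 of the 10 passed as lower and 0 as higher, with 471 of all genes and 5 pathway genes. With every row of the table tested, 1 and 0 of the 10, 239 genes and 2 pathway genes passed. Without both female controls the comparison rests on 1 male pair: 0 of the 10, 0 of all genes and 0 pathway genes passed, and Slc34a3 had an adjusted p of 0.21. Array weights left 0 of the 10 higher. The causes were not tested. Median centring, quantile normalization, a trended robust prior, removal of dim genes and averaging of clusters kept 4 lower and 1 higher of the 10. Calls over all genes were 713 higher and 1194 lower after median centring, against 913 and 683 without it. Slc34a3 passed in 15 of 16 alternatives, Slc34a1 in 10, Pth1r in 9, and Kl and Cyp24a1 in 6 each. These counts take the females-only fit and the fits without either male array separately, though they are the same fit for genotype. In the females alone, and without either male array, Slc20a1 turned to 0.082 and Cyp27b1 to -0.14; over all 6 fits without 1 array they ranged from -0.14 to 0.082 and from -0.14 to 0.93, and neither passed in any of the 16. No paired analysis was possible because the groups share no replicate numbers (1, 3 and 5 against 2, 4 and 6).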

Other observations

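The genes whose values over the 6 arrays followed Slc34a3 most closely, among 15309 genes above the dim limit, were Slc5a2 (Pearson's r = 0.998), Aldh4a1, a mitochondrial proline catabolism enzyme (0.998), Hint2 (0.997), Lonp2, a peroxisomal protease (0.994), and Armh4 (0.994). For Slc34a1 they were Ccdc162 (0.998), the glyoxalase Hagh (0.997), 4930579D09Rik (0.997), Miox (0.996) and Zfp871 (0.995). All 10 had lower means on dKO arrays, and 8 of them passed; Lonp2 (-0.13 ± 0.07, SE) and Hagh (-0.25 ± 0.07) did not. The arrays fall into 2 groups, so these coefficients describe mainly the difference between the groups.

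In the late proximal tubule, downstream of the segments where Slc34a3 is found, 5 of 12 listed genes fell and 1 rose (median -0.56). Slco1a6, an organic anion carrier, was at 9.67, 9.47 and 9.13 on dKO 1, 3 and 5, against 10.20, 10.18 and 10.30 on Control 2, 4 and 6 (-0.80 ± 0.13, SE; adjusted p = 0.021). Slc22a13 fell by 0.53 ± 0.09 (SE; adjusted p = 0.021) with overlapping groups. The glucose carrier Slc5a1 rose by 0.42 ± 0.08 (adjusted p = 0.032). Slco1a6 lost its call in 3 of the 6 fits without 1 array, Slc22a13 in 5 and Slc5a1 in all 6. The list mean was 9.94, 7.98 and 8.30 on dKO 1, 3 and 5, against 9.10, 10.24 and 9.15 on Control 2, 4 and 6, higher on the male arrays of each group.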
